A study of Mus musculus with 16 samples.

Results

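The 7 genes described here, Slc4a1, Sptb, Ank1, Epb42, Rhag, Rhd and Add2, encode proteins of the red cell membrane and of the skeleton beneath it. They were taken by name from the 29453 genes of the count matrix, and all 7 were present. Stat3 null embryonic stem cells of the CD1 background, in which exons 20 to 22 of Stat3 had been replaced and which carried tdTomato, were injected into CD1 blastocysts, and the chimeras were collected at embryonic day (E) 7.5, 8.5 and 9.5. Whole embryos were dissociated and sorted by tdTomato, so that the null cells came from the injected line and the wild-type (WT) cells from the untreated host of the same embryos. WT cells with a tdTomato UMI were left out. Each genotype had 2 libraries at E7.5, 2 at E8.5 and 4 at E9.5, made by 3′ single-cell RNA-seq with unique molecular identifiers (UMIs), and UMIs were summed per library over the cells of each deposited cell type label. The design compares cells of the injected null line with WT host cells that developed in the same embryos. The injected cells had been cultured, transfected with tdTomato and selected with puromycin, and the host cells had not. No chimera with an injected WT line is described, so loss of STAT3 cannot be told apart from these differences. Embryos were chosen for analysis by their share of donor cells. Injected stem cells seldom enter the trophoblast and the primitive endoderm, and the tags of Stat3 lie downstream of the replaced exons, so Stat3 counts do not check the genotype.

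Red cells keep their shape because a mesh of spectrin lies beneath the membrane and is tied to proteins that span it. Slc4a1 (band 3), the chloride and bicarbonate exchanger, is the most abundant of those proteins, and Rhag and Rhd form the Rh complex beside it. Ank1 (ankyrin 1) links band 3 to the β-spectrin encoded by Sptb, with Epb42 (protein 4.2) at the same link. Add2 (β-adducin) caps actin filaments where spectrin meets them. In the embryo the first, primitive red cells arise in the yolk sac and fill with haemoglobin while they circulate.

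The 37841 analysed cells gave 20682659 to 138613245 UMIs per library. Levels are given as UMIs per 1000000 UMIs of the cells summed (CPM), and are not compared between genes, because 3′ tags were not scaled by length. Libraries matched their group but no individual sample title, so the letters A to D only name them, and letters shared by 2 groups mark no pair. Embryos were pooled at E7.5 and E8.5. Those of E7.5 were first classed as large or small, so the E7.5 libraries of a genotype may differ by embryo size. At E9.5 embryos were processed individually, and only 2 are described for the 4 libraries of each genotype, so libraries counted as n = 4 may be pairs from the same embryo. Which libraries share an embryo is not known, and all p-values, SDs and permutations measure the spread between libraries, part of which may be technical. WT C and WT D of E9.5 shared 292 cell barcodes, 17 of them on Erythroid cells, and every other pair of libraries shared at most 8. The fits between stages, of whole libraries, of EMP and over all types, the shares of Erythroid cells and the pooled E9.5 levels are also given without those 2 libraries, and other E9.5 WT values include both. In libraries with more than 15 Erythroid cells, all 8 erythroid markers (5 haemoglobin genes, Gata1, Klf1 and Alas2) had UMIs, with a summed level of 22535 CPM in E7.5 null A and of 100479 to 351465 CPM at E8.5 and E9.5. Summed myeloid markers reached at most 1.61 CPM there, endothelial markers 13.0 CPM and megakaryocyte markers 27.2 CPM.

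Coordinates are those of GRCm38. Slc4a1 (ENSMUSG00000006574) lies on the minus strand of chromosome 11 at chr11:102348824-102366203. Ank1 (ENSMUSG00000031543) spans chr8:22974844-23150497 on the plus strand. Epb42 (ENSMUSG00000023216) is at chr2:121017891-121037072, minus strand, and Rhag (ENSMUSG00000023926) at chr17:40811126-40840754, plus strand. Rhd (ENSMUSG00000028825) is at chr4:134864536-134896172 and Add2 (ENSMUSG00000030000) at chr6:86028681-86124409, both on the plus strand. Sptb (ENSMUSG00000021061), at chr12:76580488-76710547 on the minus strand, meets the last base of Plekhg3 on the plus strand, so that the 3′ ends of these 2 genes touch. Whether counting used the strand is not given in the sources used here. In Erythroid cells Plekhg3 stood at 0.647 CPM at E8.5 against 89.2 CPM for Sptb, and the antisense partners of Ank1 and Add2 reached at most 0.172 and 0.431 CPM.

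The sequence upstream of the gene start is shown for the members that held a GATA word, because GATA1 is a known erythroid transcription factor. RefSeq promoters (GRCm38.p6) were found for 5 of the 7 members. The word AGATAA, the word TGATAA, the word AGATAG and the word TGATAG were sought on both strands in the 250 bases before the RefSeq start, and 26.5% of all 32851 promoters held at least 1 of them. Add2, Epb42, Rhag and Rhd each held 1 word and Sptb held none. The word lay close to the RefSeq start in Rhd (-43 to -38) and Rhag (-31 to -26). It lay far from the RefSeq start in Epb42 (-226 to -221) and Add2 (-234 to -229). GENCODE starts Epb42 further upstream, just after -196, so the Epb42 word lay close to that start. Capitals mark the word as it reads on the gene's own strand, 5′ to 3′, and positions count back from the RefSeq start. Bases that the GENCODE annotation places inside the gene were trimmed from the end of a window.
Rhd, chr4:134864286-134864535, plus strand: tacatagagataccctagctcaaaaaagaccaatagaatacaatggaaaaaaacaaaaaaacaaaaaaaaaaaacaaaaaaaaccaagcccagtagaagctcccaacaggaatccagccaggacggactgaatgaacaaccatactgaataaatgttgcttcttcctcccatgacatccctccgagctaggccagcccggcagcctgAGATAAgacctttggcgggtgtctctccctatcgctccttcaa
Rhag, chr17:40810899-40811125, plus strand: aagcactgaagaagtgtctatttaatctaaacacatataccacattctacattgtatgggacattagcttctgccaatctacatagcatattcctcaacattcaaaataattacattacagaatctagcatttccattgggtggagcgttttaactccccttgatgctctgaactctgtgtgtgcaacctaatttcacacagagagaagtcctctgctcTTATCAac
Epb42, chr2:121037073-121037127, minus strand: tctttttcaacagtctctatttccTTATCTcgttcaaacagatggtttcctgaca
Add2, chr6:86028431-86028680, plus strand: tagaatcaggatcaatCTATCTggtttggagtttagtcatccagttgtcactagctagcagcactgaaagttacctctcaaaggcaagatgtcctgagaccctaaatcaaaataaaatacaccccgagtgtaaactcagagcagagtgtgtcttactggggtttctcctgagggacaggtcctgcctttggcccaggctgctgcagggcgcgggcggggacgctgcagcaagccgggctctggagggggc
Other motifs were counted in the same 250 bases, on both strands. CCNCNCCC, the CACCC box, was found 3 times in Sptb and 2 times in Add2, overlapping in both genes, and in 45.9% of all promoters. CANNTG, the E-box, was found 4 times in Epb42 and 1 time each in Sptb and Add2, and in 66.2% of all promoters. By GENCODE, the E-boxes of Epb42 that began at -193, -182 and -93 lay inside the gene. TTCNNNGAA, the STAT word, was in none of the 5 windows and in 7.02% of all promoters. These are matches of letters only.

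All 7 members had their highest mean level in E9.5 Erythroid cells among the 146 combinations of stage and cell type with a library of more than 15 cells. Cell types were assigned from the expression of these same cells, so levels across types are a description and no test was made. E8.5 Erythroid cells came next for every member. Epb42 and Rhag were at 0 in more combinations than not (76 and 77 of 146), and Rhag and Rhd passed 10 CPM in 3 combinations each. Sptb was the most widely seen, passing 10 CPM in 14 combinations.

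In WT Erythroid cells the members were higher at E9.5 than at E8.5, and for all 7 every E9.5 library lay above every E8.5 library. Among the 10252 genes with a mean of at least 1 CPM, 9.33% showed that split. With edgeR's quasi-likelihood test and Benjamini-Hochberg adjustment over 8798 genes, 4 of the 7 rose past an adjusted p of 0.05, where 10% of all genes did so. Rhd also passed a log2 fold change of 1, as did 4.47% of all genes. The median log2 fold change was 0.92 over the members and 0.05 over all genes tested. Haemoglobin genes took 13.8% to 22.7% of Erythroid UMIs at E8.5 and 31.4% to 35.1% at E9.5. They were left out of the fit, whereas the CPM values and the ratios of means below count them in the total. Without haemoglobin UMIs in the total, E8.5 and E9.5 means were 287 and 770 CPM (Slc4a1), 112 and 224 (Sptb) and 67.9 and 104 (Ank1). They were 46.1 and 92.3 CPM (Epb42), 50.8 and 116 (Rhag), 31.2 and 160 (Rhd) and 80.8 and 132 (Add2). The part of the haemoglobin shift in the members' change was not tested.

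**Figure D1:**
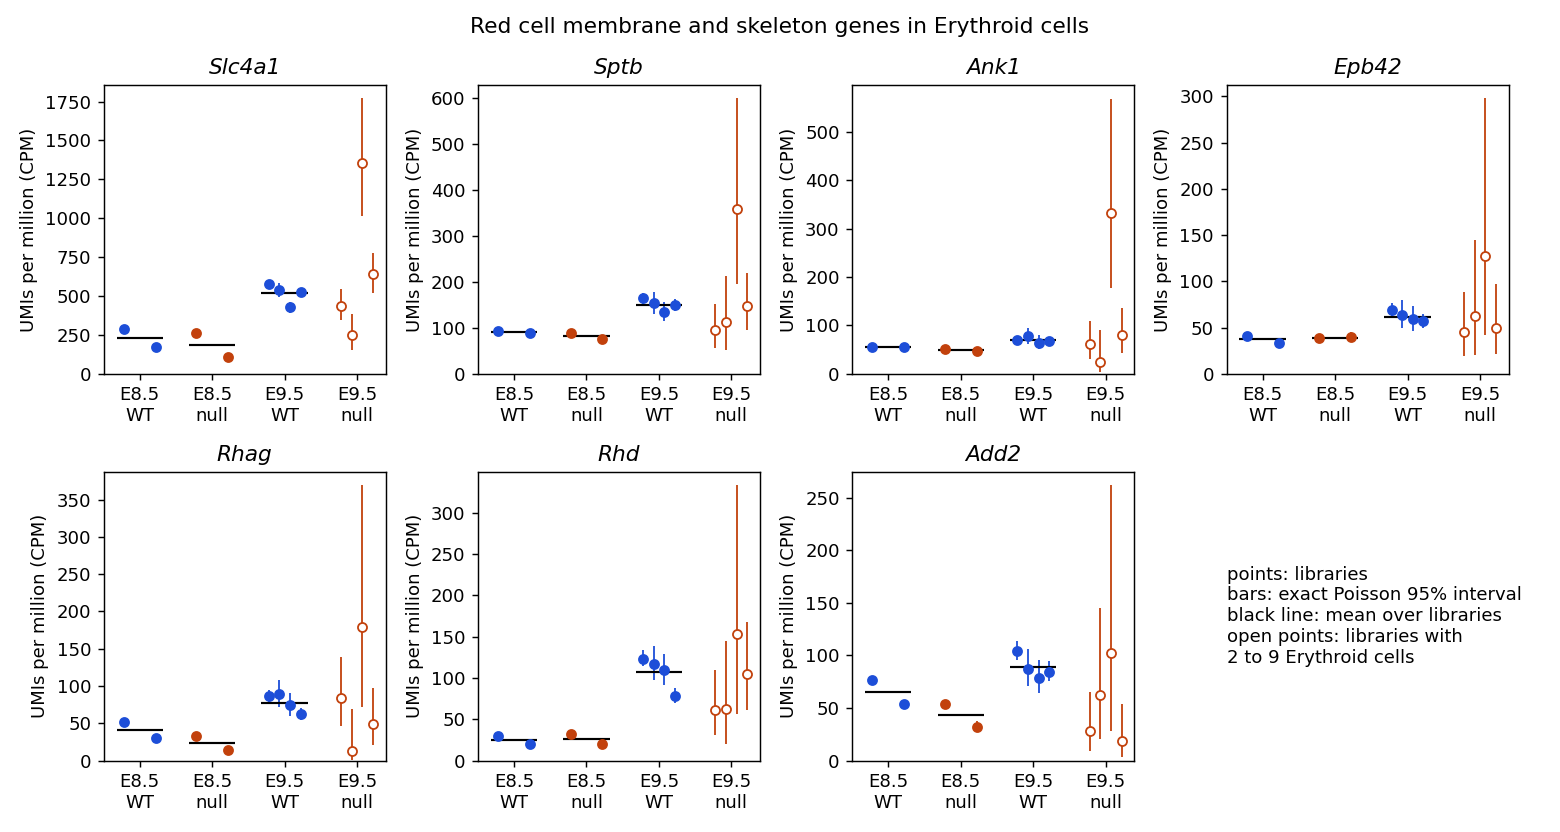
Level of each gene (CPM of Erythroid cells) in each library, with exact Poisson 95% intervals for counting error, and the mean over libraries as a black line (none for E9.5 null). Blue points are WT and orange points null. Open points are the E9.5 null libraries, which held 2 to 9 Erythroid cells each. The 4 E9.5 WT points lie above the 2 E8.5 WT points for every gene, and the ratio of the means is largest in Rhd.

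Rhd, of the Rh complex, changed most as a ratio of mean levels. Its level was 29.9 and 20.5 CPM in E8.5 WT A and B and 123.5, 117, 109 and 78.7 CPM in E9.5 WT A to D. The mean rose 4.25-fold, from 25.2 ± 6.59 (SD, n = 2) to 107 ± 19.8 CPM (SD, n = 4), and the fitted change was 2.25 on the log2 scale (SE 0.29, edgeR adjusted p = 0.00304). Its partner Rhag stood at 51.3 and 30.4 CPM at E8.5 and at 86.1, 89.0, 74.1 and 62.3 CPM at E9.5. The E8.5 libraries of Rhag lay far apart, and its difference did not pass (log2 fold change 1.08, SE 0.33, edgeR adjusted p = 0.0740).

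Slc4a1, the anion exchanger, was at 289.7 CPM in E8.5 WT A and 172 CPM in WT B. At E9.5 it was at 578, 537, 428 and 524 CPM in WT A to D. These means, 231 ± 83.3 and 517 ± 63.7 CPM (SD, n = 2 and 4), differed 2.24-fold, and the difference did not pass (log2 fold change 1.33, SE 0.33, edgeR adjusted p = 0.0530). Epb42 was steadier. It stood at 41.0 and 33.8 CPM at E8.5 and at 68.5, 63.6, 58.8 and 56.9 CPM at E9.5, and rose 1.66-fold (log2 fold change 0.92, SE 0.15, edgeR adjusted p = 0.000791).

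Of the skeleton members, Sptb and Ank1 differed least between the E8.5 libraries. Sptb measured 93.9 and 88.7 CPM at E8.5 and 164, 153, 135 and 149 CPM at E9.5, and rose 1.65-fold (log2 fold change 0.92, SE 0.12, edgeR adjusted p = 0.000109). Ank1 measured 54.6 and 56.2 CPM, then 70.7, 77.2, 64.2 and 67.7 CPM, and rose 1.26-fold (log2 fold change 0.53, SE 0.12, edgeR adjusted p = 0.00577). Add2, which varied more at E8.5, measured 76.6 and 53.9 CPM, then 104, 87.2, 78.7 and 84.6 CPM, so that E9.5 WT C lay only just above E8.5 WT A, and the difference did not pass (log2 fold change 0.63, SE 0.21, edgeR adjusted p = 0.0661).

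Which members passed turned on the test and on E8.5 WT A and WT B. DESeq2 put all 7 past the threshold, with adjusted p of 0.00169 for Slc4a1, 0.00024 for Rhag and 0.0238 for Add2, and so did edgeR without E8.5 WT A, when 6 also passed a log2 fold change of 1. Without E8.5 WT B, 5 members passed in edgeR, as Ank1 was lost (adjusted p = 0.068) while Slc4a1 (adjusted p = 0.00010) and Rhag (adjusted p = 0.0091) were gained. Without E9.5 WT C and D, the same 4 members passed, with edgeR adjusted p of 0.0044 for Sptb, 0.013 for Epb42, 0.040 for Ank1 and 0.0056 for Rhd. The share of all genes past the threshold is not given for these alternative fits. Their member counts therefore have no background, and the share given above for the main fit does not serve as one.

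Other membrane and skeleton genes were read from 3 lists. Of 9 partners of the skeleton, 2 rose and 1 fell past the adjusted p of 0.05, where 10% of all genes rose and 10.2% fell. On the log2 scale, Epb41 (protein 4.1) at 0.31 and Actb (β-actin) at -0.03 did not pass. Dmtn (dematin) at 0.90, Add1 (α-adducin) at 0.65 and the tropomyosin Tpm3 at -0.47 passed, and were picked out once their values were known. Of 10 other membrane proteins tested, 5 rose and none fell by the edgeR test. Ermap, a red cell adhesion protein, at 1.31 and Kel, the Kell antigen, at 1.35 passed both thresholds (adjusted p of 0.0413 and 0.0472), and Icam4 at 0.97, Xk at 0.96 and Piezo1 at 0.61, again picked out by their values, passed the adjusted p only. Of 8 relatives used mainly outside red cells, only Tgm2 (transglutaminase 2, related to protein 4.2) passed, at 1.46 (adjusted p = 0.0354).

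Per cell, the same shift was seen after each cell was thinned to 10000 UMIs. The share of WT Erythroid cells with an Rhd UMI was 21.3% (exact 95% interval 18.8 to 23.9%) at E8.5 and 63.7% (58.6 to 68.5%) at E9.5. For Rhag the shares were 30.9% (28.1 to 33.8%) and 58.2% (53.0 to 63.2%). Slc4a1 was near its ceiling, at 77.4% (74.7 to 79.9%) and 98.7% (97.0 to 99.6%). The share for the other 4 genes went from 59.9% to 75.8% (Sptb), 42.1% to 52.1% (Ank1), 28.3% to 48.7% (Epb42) and 44.3% to 63.2% (Add2). Without E9.5 WT C and D the E9.5 shares were 72.9% for Rhd (66.4 to 78.9%), 64.3% for Rhag (57.3 to 70.8%) and 100% for Slc4a1 (98.2 to 100%), and 76.8% (Sptb), 52.7% (Ank1), 50.7% (Epb42) and 68.6% (Add2). In WT cranial mesoderm, which should lack these genes, shares were 0 to 2.68% at E8.5 and 0 to 2.81% at E9.5. Median depths before thinning were 31385 and 22601 UMIs in Erythroid cells and 21154 and 29579 in cranial mesoderm, at E8.5 and E9.5. Intervals cover counting error only. Cells with 4 or more of the 7 members made up 43.7% and 29.1% of Erythroid cells in E8.5 WT A and B, 37.0% and 20.6% in E8.5 null A and B, and 82.3%, 86.0%, 68.4% and 81.5% in E9.5 WT A to D.

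At E8.5 no member passed the test between null and WT Erythroid cells. All 7 were tested, with 0 past an adjusted p of 0.05, where 0.0986% of 10143 genes passed, and 0 past both thresholds, where 0.0887% of genes passed. At an unadjusted p under 0.05 there were 815 genes and no member, and DESeq2 also put no member past its threshold, although it called 82 genes. The median log2 fold change was -0.23 over the members, 5 of them negative, and 0.01 over all genes. Skeleton partners (9 of 9 tested), other membrane proteins (10 of 11) and relatives (8 of 10) held no gene past the adjusted p either.

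Within each genotype, the library with the lower haemoglobin share also had the lower level of most members. Slc4a1 was at 289.7 and 172 CPM in WT A and B and at 261 and 107 CPM in null A and B, with no difference past the threshold (log2 fold change -0.36, SE 0.65, edgeR adjusted p = 0.958). Haemoglobin took 22.7% and 13.8% of Erythroid UMIs in WT A and B and 20.3% and 10.1% in null A and B, in the same order as Slc4a1. The part of that order in the null and WT values was not tested.

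Add2 and Rhag had the largest differences, both with an SE over 0.4. Add2 was at 76.6 and 53.9 CPM in WT and at 54.0 and 32.2 CPM in null libraries (log2 fold change -0.61, SE 0.42, adjusted p = 0.834). Rhag was at 51.3 and 30.4 CPM in WT and 33.6 and 14.7 CPM in null libraries (-0.72, SE 0.60, adjusted p = 0.883). The groups overlapped for both. Sptb was at 93.9 and 88.7 CPM in WT and 88.8 and 74.7 CPM in null libraries (-0.20, SE 0.19, adjusted p = 0.899). Ank1 was at 54.6 and 56.2 CPM against 50.3 and 46.3 CPM (-0.23, SE 0.15, adjusted p = 0.794). Epb42 (0.01, SE 0.20, adjusted p = 0.995) and Rhd (0.06, SE 0.39, adjusted p = 0.987) had fold changes near 0. Leaving out a library moved Rhag between -1.68 and -0.12 and Add2 between -1.21 and -0.16, changed the sign for Slc4a1, Sptb, Epb42 and Rhd, and brought no member past the threshold.

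At E9.5 the null libraries held 9, 2, 2 and 6 Erythroid cells, against 164, 43, 38 and 135 in WT A to D. These 19 null cells were therefore given as pooled levels with exact Poisson 95% intervals, which cover counting error only and do not compare the genotypes. Slc4a1 stood at 553 CPM (487 to 626) in null and 538 CPM (525 to 552) in WT cells. Sptb was at 139 (107 to 177) against 155 CPM, Ank1 at 84.6 (60.2 to 116) against 69.6 CPM, and Epb42 at 56.4 (36.9 to 82.7) against 63.0 CPM. Rhag was at 67.3 (45.7 to 95.5) against 77.0 CPM and Rhd at 84.6 (60.2 to 116) against 106 CPM. The null libraries lay far apart, from 249 to 1356 CPM for Slc4a1, 24.9 to 333 CPM for Ank1 and 61.5 to 153 CPM for Rhd. Without E9.5 WT C and D, the pooled WT level was 571 CPM for Slc4a1, 162 for Sptb, 71.9 for Ank1, 67.6 for Epb42, 86.6 for Rhag and 122 for Rhd.

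Add2 had 17 UMIs in null cells, which gave 36.9 CPM (21.5 to 59.1), against 93.0 CPM (87.4 to 98.8) in WT cells and 101 CPM without WT C and D, and 3 of 19 null cells (15.8%, 3.38 to 39.6%) had an Add2 UMI after thinning, against 63.2% of WT cells. By library it was at 28.0, 62.2, 102 and 18.5 CPM in null A to D, from 3 to 5 UMIs each, so that null C reached the WT range. A fit that admitted libraries with at least 1 cell put Add2 at -1.41 (SE 0.36, edgeR adjusted p = 0.0495) and no other member past the threshold, where 0.366% of 4373 genes were called lower. That call was lost without any of WT A, WT B, WT C, WT D, null A or null D, which left 0 members past the threshold, and without WT C and D together (adjusted p = 0.318). It was kept in the other 3 alternatives, without null B, without null C and with more than 5 cells, at -2.255 to -1.75. The fit with more than 5 cells kept only null A and D of the null libraries. Haemoglobin took 24.5% and 25.3% of UMIs in null A and D, where Add2 was lowest, and 40.6% and 31.0% in null B and C, and its part in the difference was not tested.

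Summed over all cells of an E9.5 library, 6 of the 7 members were lower in null than in WT libraries, where 0.465% of 14842 genes were called lower. Such sums cannot tell fewer red cells from less RNA of these genes per cell. Erythroid cells made up 0.0830% to 0.388% of the cells in null libraries and 1.63% to 5.32% in WT libraries. For the same 6 members the highest null library was below the lowest WT library, a split shown by 3.63% of the 13040 genes with a mean of at least 1 CPM. An exact permutation of log2(CPM + 1), two-sided, gave p = 0.0286 for each, the smallest that 4 against 4 libraries allow when each is taken as independent, although they may come from only 2 embryos. Without WT C and D the same 6 members showed the split, and p was 0.133, the smallest that 4 against 2 libraries allow.

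**Figure D2:**
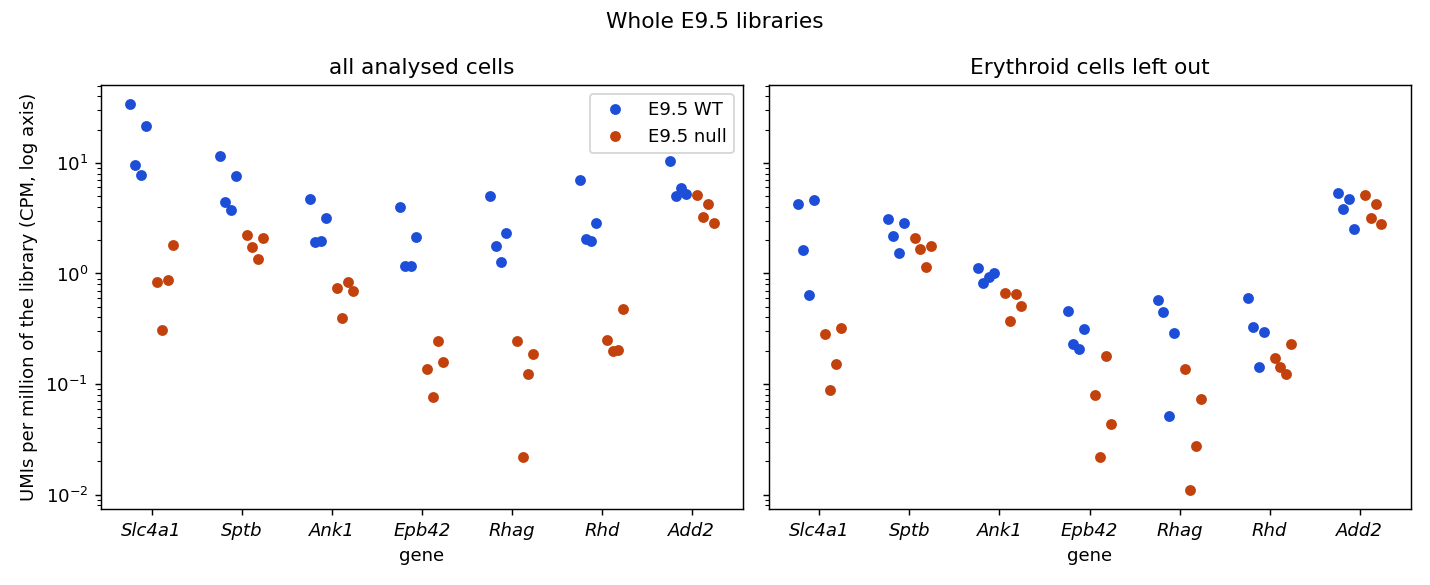
Level of each gene summed over all analysed cells of a library (left) and with Erythroid cells left out (right), in CPM on a log axis, with a point for each of the 4 WT (blue) and 4 null (orange) libraries of E9.5. On the left, WT and null libraries overlap only for Add2. On the right they also overlap for Sptb, Rhag and Rhd.

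Of the membrane proteins, Slc4a1 was at 34.0, 9.54, 7.72 and 21.5 CPM in WT A to D and at 0.844, 0.307, 0.874 and 1.83 CPM in null A to D (log2 fold change -4.30, SE 0.63, edgeR adjusted p = 0.0153). Rhag was at 5.01, 1.76, 1.28 and 2.31 CPM against 0.245, 0.0219, 0.123 and 0.188 CPM (-4.12, SE 0.61, adjusted p = 0.0170). WT A, with the highest Erythroid share, was the highest library for each member. Rhd was at 6.97, 2.05, 1.95 and 2.85 CPM against 0.252, 0.197, 0.205 and 0.478 CPM (-3.64, SE 0.51, adjusted p = 0.0125), and Epb42 at 3.99, 1.17, 1.18 and 2.16 CPM against 0.137, 0.0767, 0.246 and 0.159 CPM (-3.81, SE 0.51, adjusted p = 0.00923).

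Of the skeleton members, Ank1 was at 4.74, 1.94, 1.97 and 3.17 CPM in WT and 0.743, 0.394, 0.833 and 0.696 CPM in null libraries (log2 fold change -2.16, SE 0.34, edgeR adjusted p = 0.0187). Sptb was at 11.5, 4.42, 3.76 and 7.62 CPM against 2.24, 1.75, 1.34 and 2.12 CPM (-1.88, SE 0.36, adjusted p = 0.0487). Add2 was at 10.5, 5.05, 5.92 and 5.21 CPM against 5.12, 3.24, 4.26 and 2.87 CPM, overlapped, and did not pass (-0.79, SE 0.27, adjusted p = 0.308, exact permutation p = 0.0571). The WT to null ratio of mean levels was 18.9 for Slc4a1, 17.9 for Rhag, 13.7 for Epb42, 12.2 for Rhd, 4.44 for Ank1, 3.66 for Sptb and 1.72 for Add2. These ratios also take in RNA from other cell types, where the Add2 levels of the 2 genotypes overlapped (given below without Erythroid cells) and Sptb was seen in amniotic ectoderm, and tests of whether they differ from each other were not made.

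The number of members called depended on the libraries and on the processing. Without null A or null B 2 members stayed past both thresholds, without null C 1 and without null D 3. Without WT A or WT B 5 were called, without WT D 4, and without WT C all 6, and 4 were called with no filter on low counts. Sptb, closest to the threshold, was lost without WT A, WT B, WT D or any null library, with no filter on low counts, with the left-out genes kept, with WT cells that held tdTomato UMIs kept, and without WT C and D together (edgeR adjusted p of 0.0506 to 0.147), while the direction was unchanged for all 7 members in these fits. On the log2 scale, Ermap (-4.27), Kel (-4.13) and Icam4 (-2.83) were called lower among the listed genes, and the tropomyosin Tpm3 (0.44, adjusted p = 0.00647), picked out by its value, passed in the other direction. That left 8 of 9 skeleton partners, 8 of 11 other membrane proteins and all 9 tested relatives not past the threshold.

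With the Erythroid cells left out, 41 of 14835 genes (0.276%) were called and 0 members, and 0 members passed the adjusted p in edgeR. All 7 fitted differences were still below 0, at -2.30 for Rhag (adjusted p = 0.316), -1.92 for Epb42 (adjusted p = 0.173), -1.02 for Rhd, -0.80 for Ank1 and -0.53 for Sptb on the log2 scale. Slc4a1 was still seen, at 4.25, 1.65, 0.643 and 4.60 CPM in WT A to D and 0.282, 0.0877, 0.150 and 0.320 CPM in null A to D, without overlap (log2 fold change -3.71, edgeR adjusted p = 0.0570, exact permutation p = 0.0286). Ank1 (null at most 0.665, WT at least 0.816 CPM) and Epb42 (0.178 and 0.206 CPM) also did not overlap, each with an exact permutation p of 0.0286. The share of all genes with such a split without Erythroid cells was not counted, so these splits have no background and nothing is drawn from them. Epb42 levels were very low in both genotypes, at 0.0219 to 0.178 CPM in null and 0.206 to 0.458 CPM in WT libraries. Haemoglobin genes stood at 568 to 1495 CPM in the same WT cells and at 10.5 to 120 CPM in the null cells, and the part of free RNA or of mislabelled red cells in the Slc4a1 values was not tested. Add2 overlapped widely, at 2.54 to 5.38 CPM in WT and 2.83 to 5.09 CPM in null libraries (log2 fold change -0.08, exact permutation p = 0.8). At E8.5, where Erythroid cells made up 11.4% to 16.7% of cells in every library, whole-library Slc4a1 was at 69.0 and 40.4 CPM in WT and 58.6 and 16.6 CPM in null libraries, and 2 against 2 libraries cannot give an exact permutation p below 0.333.

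The 2702 Erythroid cells, Blood progenitors and Haematoendothelial progenitors with at least 10000 UMIs were ordered along the first principal component of 1000 variable genes, which held 14.7% of the variance and used none of the members or listed membrane genes, and were divided into 5 bins of equal width between the early and late ends, the end bins taking cells beyond them. The first 2 bins held mostly E7.5 cells and the last 2 E8.5 and E9.5 cells, so position and stage cannot be told apart. In the third bin, which mixed stages, Slc4a1 was at 6.63 CPM in 47 cells of E7.5 null A and 102 CPM in 36 cells of E8.5 WT B. In the second bin, where 90.0% of cells were labelled Blood progenitors, Sptb had reached 25.8% and Epb42 20.7% of their level in the last bin, and the other 5 genes 0.265% to 3.54%. In the fourth bin Ank1 was at 86.7%, Sptb at 72.3%, Add2 at 66.2% and Epb42 at 61.3%, whereas Rhag was at 36.4%, Rhd at 34.9% and Slc4a1 at 21.8%. At that position the skeleton genes and Epb42 were nearer to their late level than Slc4a1, Rhag and Rhd, a description of pooled cells with no test. Of the 288 cells in the fourth bin, 186 came from E8.5 WT B. In that library Slc4a1 was at 102 CPM in the third and 67.7 CPM in the fourth bin. Rhag was at 20.2 and 16.6 CPM there, and the other members were higher in the fourth bin than in the third.

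Small groups of early cells were also read gene by gene. The 17 Erythroid cells of E7.5 null A had Sptb at 49.98 CPM, Epb42 at 34.8 CPM and Ank1 at 22.8 CPM. Add2 was at 21.7 CPM and Rhd at 16.3 CPM there, with Slc4a1 at 3.26 CPM and Rhag at 2.17 CPM, and haemoglobin at 2.23% of their UMIs. In E8.5 MEP cells Slc4a1 was at 57.3 CPM (exact Poisson 95% interval 40.4 to 79.0) in 22 WT cells and 10.2 CPM (4.42 to 20.2) in 26 null cells. By library it was at 25.6 CPM in 8 cells of WT A, 87.1 CPM in 14 cells of WT B and 10.2 CPM in both null A (7 UMIs in 23 cells) and null B (1 UMI in 3 cells), and no test was made. Sptb was at 57.3 CPM (40.4 to 79.0) in WT and 65.3 CPM (48.6 to 85.8) in null MEP cells, and Rhag at 10.8 CPM (4.36 to 22.3) and 6.399 CPM (2.08 to 14.9). These intervals pool cells, cover counting error only and do not compare the genotypes. MEP levels of Ank1, Epb42, Rhd and Add2 are not given here. For comparison, mean levels in E8.5 Erythroid cells were 207 CPM for Slc4a1 and 86.5 CPM for Sptb. In E8.5 Chorioallantoic-derived erythroid progenitors Slc4a1 was at 66.9 CPM in WT A (47 cells) and 102 CPM in WT B (14 cells), and Sptb at 13.1 and 50.9 CPM.

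**Figure D3:**
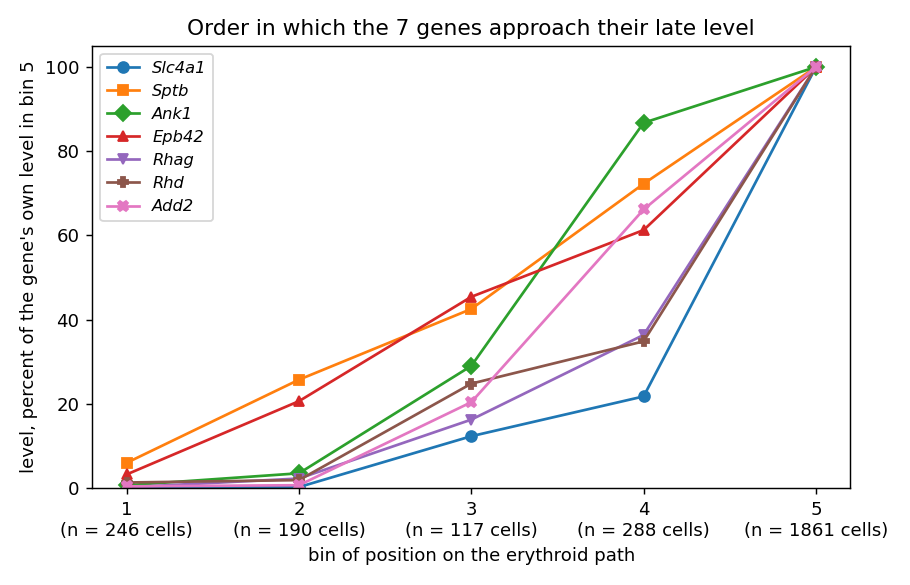
Level of each gene in 5 bins along the erythroid path, as a percent of its own level in bin 5, with the number of cells per bin under the axis. Sptb and Epb42 leave the base line by bin 2, Ank1, Add2, Rhd, Rhag and Slc4a1 by bin 3, and Slc4a1 is lowest in bin 4. Cells of all libraries and stages are pooled, and 186 of the 288 cells in bin 4 came from E8.5 WT B.

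In the last bin, which has no upper end, null and WT cells of E8.5 were set side by side, without matching their positions within it. The median position of all Erythroid cells, on a scale where the early end is 0 and the late end 1, was 0.955 and 0.842 in E8.5 WT A and B and 0.922 and 0.819 in null A and B. Mean log2(CPM + 1) was lower in null than in WT libraries by 0.79 for Rhag, 0.65 for Add2, 0.31 for Slc4a1, 0.26 for Ank1 and 0.16 for Sptb, and higher by 0.07 for Epb42 and 0.10 for Rhd. Add2 was at 53.7 and 34.4 CPM in the null libraries and 76.9 and 60.1 CPM in the WT libraries there, and Rhag at 34.3 and 17.7 CPM against 52.1 and 36.3 CPM. No test was made with 2 libraries a group. Leaving out a library moved the difference between -1.25 and -0.34 for Rhag, between -0.96 and -0.28 for Add2 (the latter without WT A) and between -0.70 and 0.08 for Slc4a1. Epb42 (down to -0.0074) and Rhd (down to -0.094) also changed sign.

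In E7.5 Blood progenitors Sptb was at 33.2 and 37.2 CPM in WT A (40 cells) and WT B (67 cells) and at 23.6 and 17.9 CPM in null A (154 cells) and null B (18 cells). The difference did not pass adjustment over 8194 genes (log2 fold change -0.63, SE 0.21, edgeR unadjusted p = 0.00653, adjusted p = 0.491). Of those genes 0.342% were called, and neither of the 2 members tested was. Epb42, at 17.9 and 9.40 CPM in WT and 8.17 and 8.16 CPM in null libraries, did not pass either (log2 fold change -0.66, SE 0.34, adjusted p = 0.978). The other 5 members were too low to be tested, with Slc4a1 at 0 in 3 of 4 libraries and at 1.95 CPM in null A. After thinning, 31.8% (23.1 to 41.5%) of WT and 17.4% (12.1 to 24.0%) of null Blood progenitors had an Sptb UMI. These shares pool cells, 154 of the null ones from null A. Their intervals cover counting error only and not the spread between libraries, so they do not compare the genotypes.

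In E9.5 EMP cells, the erythro-myeloid progenitors, none of the 7 members was high enough to be tested, where 0.182% of 8771 genes were called. Slc4a1 was at 1.58 CPM (0.790 to 2.83) in 150 WT cells, and Sptb was at the same level from the same 11 UMIs. Without WT C and D, Slc4a1 was at 2.45 CPM from 9 UMIs in 78 WT cells and Sptb at 1.36 CPM from 5. In 113 null cells Slc4a1 had 3 UMIs (0.574 CPM) and Sptb 5 (0.957 CPM). Add2 was at 1.91 CPM (0.917 to 3.52) from 10 UMIs in null cells and 0.432 CPM from 3 UMIs in WT cells. All 10 null UMIs came from a single library, at 3.42 CPM, and WT libraries ran from 0 to 1.48 CPM. Rhag was at 1.34 CPM (0.539 to 2.76) from 7 UMIs in null cells and 0.432 CPM from 3 in WT cells. It was at 2.05 and 0.838 CPM in the 2 null libraries with most cells, and at 0 to 1.58 CPM in WT libraries. These intervals cover counting error only and do not compare the genotypes. Rhd was at 0 of 6950047 UMIs in WT, which, taking 3 UMIs as the limit for a count of 0, allows a level of up to 0.432 CPM.

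Levels outside the red lineage were gene by gene. Sptb stood at 51.1 and 51.9 CPM in amniotic ectoderm of E9.5 WT A and D and at 48.1 and 45.8 CPM in null A and B, with E8.5 libraries between 25.4 and 54.7 CPM. Haemoglobin was at 7.86 to 1019 CPM in those 4 E9.5 libraries, and the level of Sptb that goes with haemoglobin in Erythroid cells would be 0.207 CPM. Plekhg3, whose 3′ end touches that of Sptb, stood at 14.6 CPM in E9.5 amniotic ectoderm, and its share of the Sptb counts was not tested. Sptb was also at 47.5 ± 1.55 CPM (SD, n = 2) in E8.5 Megakaryocyte progenitors, where Plekhg3 was at 0.869 CPM. In E9.5 pharyngeal endoderm Sptb ranged from 14.2 to 28.0 CPM over 7 libraries, beside Plekhg3 at 30.9 CPM.

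Add2 was seen in the neural tube. In E9.5 Dorsal midbrain neurons it was at 19.5, 17.7, 25.8 and 13.5 CPM in WT A to D and 21.1, 14.5, 21.9 and 20.1 CPM in null A to D, with full overlap (log2 fold change 0.01, SE 0.17, edgeR adjusted p = 1.00). The level that goes with haemoglobin would be 0.0919 CPM. Ventral forebrain progenitors (9.61 ± 2.78 CPM, SD, n = 8) and Hindbrain floor plate (8.31 ± 1.78 CPM, SD, n = 8) followed among E9.5 types. The lowest library of Dorsal midbrain neurons, at 13.5 CPM, was above the highest of Ventral forebrain progenitors, at 13.2 CPM, and the latter overlapped with Hindbrain floor plate. Outside the neural tube, Add2 was at 12.1 CPM in the Node of E7.5 null A, from 13 UMIs in 40 cells, where haemoglobin was at 23.2 CPM.

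Rhd was low but present at E7.5 in types with almost no haemoglobin. It was at 7.31 and 5.08 CPM in ExE ectoderm of WT A and B, where haemoglobin genes stood at 6.12 and 4.91 CPM. In the Epiblast of 3 libraries it ranged from 0 to 7.13 CPM. Over whole E7.5 libraries Rhd was at 2.58 and 2.47 CPM in WT A and B and 1.08 and 1.31 CPM in null A and B, and ExE ectoderm had more than 15 cells in the WT libraries only. Ank1 was at 8.99 ± 6.86 CPM (SD, n = 3, 1 WT and 2 null libraries) in E9.5 Cardiomyocytes FHF 1, with a null library at 1.67 CPM and another at 15.3 CPM. Over all 131 cells of that type, with the smaller libraries included, it was at 17.55 CPM. Slc4a1 was at 18.9 CPM in 17 cells of E9.5 parietal endoderm, from 8 UMIs of a single library, where haemoglobin was at 2574 CPM. The level that goes with haemoglobin in Erythroid cells would be 4.27 CPM.

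**Figure D4:**
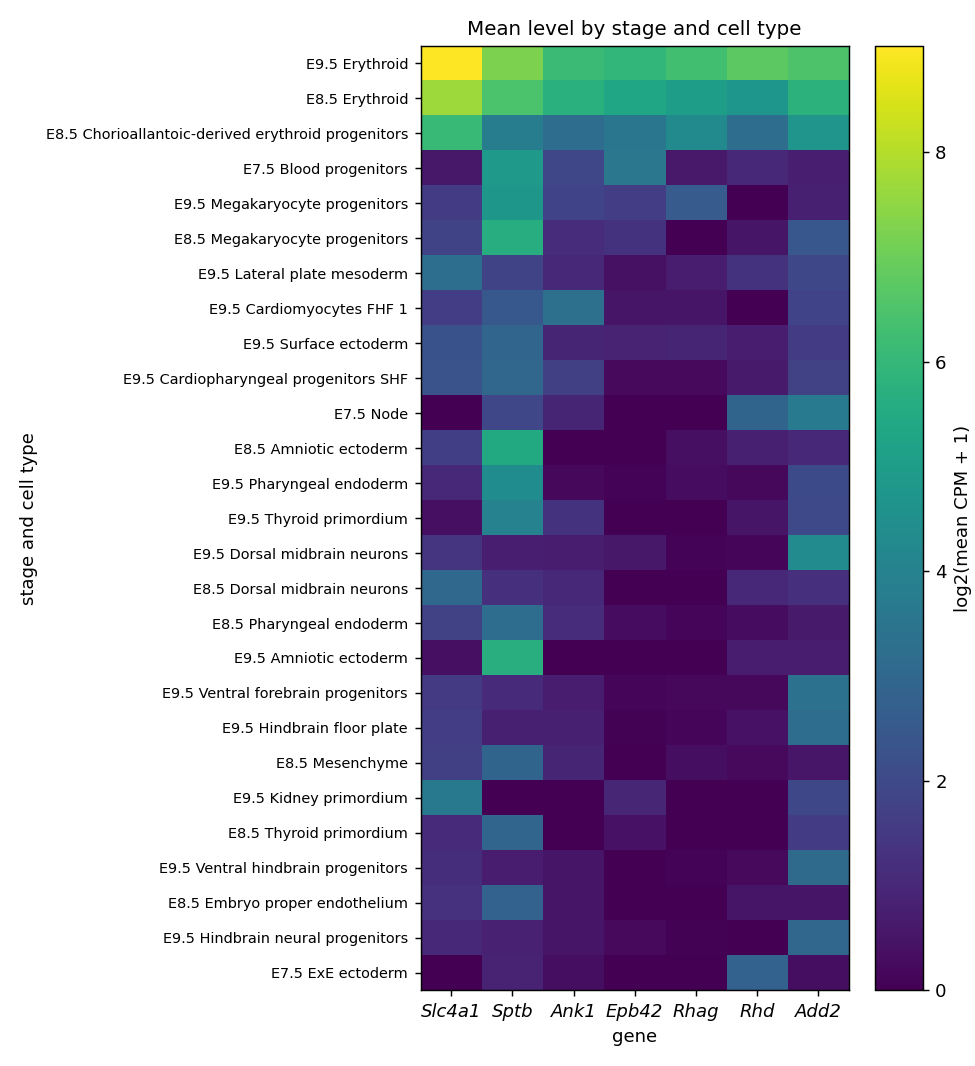
Mean level of each gene, as log2(mean CPM + 1) over libraries of both genotypes with more than 15 cells, in the stages and cell types shown. The Erythroid rows at the top are high in all 7 columns. Sptb (amniotic ectoderm, megakaryocyte progenitors, pharyngeal endoderm) and Add2 (dorsal midbrain neurons, forebrain, hindbrain and the E7.5 Node) have high squares elsewhere.

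Fitted over every type and stage with enough cells, null and WT could be compared in 64 fits, and a member was high enough to be tested in 17 of them, 25 tests in all. None of the 25 passed (background 0.11% of all gene tests summed over fits) and 1, Sptb in E7.5 Blood progenitors, had an unadjusted p under 0.05. Sptb in thyroid primordium of E9.5 came next (log2 fold change -1.38, SE 0.67, edgeR adjusted p = 0.992). Without E9.5 WT C and D, 17 member tests could be made in the 37 E9.5 fits in place of 10, and 1 of them passed, where 0.132% of all gene tests in those fits were called. This was Slc4a1 in Dorsal midbrain neurons (edgeR adjusted p = 0.0476), which was too low to be tested with all libraries. It entered the test only through the 2 WT libraries kept, with 28 and 12 UMIs against 1 to 9 in the null libraries, so the call was partly set by the filter on low counts and supports nothing here. Slc4a1 stood there at 3.43, 2.84, 1.48 and 3.59 CPM in WT A to D and 0.707, 0.367, 0.357 and 0.346 CPM in null A to D. Haemoglobin was at 276 to 1062 CPM in those WT libraries and at 7.71 to 127 CPM in the null libraries, and its part in the difference was not tested.

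Across 144 WT combinations of stage and type with at least 20 cells, Pearson correlations of log2(CPM + 1) between members ran from 0.306 (Sptb and Add2) to 0.811 (Slc4a1 and Rhag). These points share libraries and free RNA and are a description only. The 3 genes nearest to Rhag were 6030468B19Rik (0.864), Ermap (0.851) and Cldn13 (0.842). Slc4a1 was nearest to Rhag, Ermap (0.768) and the haemoglobin gene Hba-a1 (0.766). Epb42 was nearest to 3 globin genes, Hbb-bh2 (0.820), Hbb-bt (0.802) and Hbq1b (0.784). Ank1 was nearest to Hemgn (0.718), Rhag (0.709) and Redrum (0.698), and Rhd to Asb17os (0.709), Cldn13 (0.675) and Ccdc92b (0.668). Sptb was nearest to 1300017J02Rik (0.659), Smim1 (0.643) and Fech (0.637), the enzyme that closes haem synthesis. Add2 was nearest to Prdx2 (0.668), Cldn13 (0.595) and Bpgm (0.585).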

How the data were processed

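The authors deposited raw UMI counts per gene and cell, with a table of cell labels, from 10x 3′ v3 libraries processed with Cell Ranger on mm10 (per the submitters' processing notes). They kept cells by reads, genes, mitochondrial percent and ribosomal percent, marked doublets with scds and transferred cell type labels from an atlas of mouse gastrulation. Percent of mitochondrial UMIs per cell was deposited with them. The cell labels covered 192657 barcodes and the matrix 41832. After 3395 doublets were removed, and 596 cells of the WT gate that held tdTomato UMIs, 37841 cells were analysed, 360 to 4327 per library, with a median depth of 18205 to 57791.5 UMIs per cell.

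Counts were summed per library and type and tested in edgeR 4.0.16 (R 4.3.3; filterByExpr, TMM, robust quasi-likelihood fit) for libraries with more than 15 cells, leaving out predicted, mitochondrial, ribosomal protein, haemoglobin, Xist, Y-linked and tdTomato genes (8178 genes). A call needed an adjusted p under 0.05 and an absolute log2 fold change over 1. The fits of E8.5 Erythroid cells, E7.5 Blood progenitors, WT stages and whole libraries were also run on simulated counts, and those outcomes are not given here. Alternatives were DESeq2 1.42.0, other filters, size factors and cell minimums, and each library left out. Permutation tests used scipy 1.17.1 and a pseudocount of 1. The study blocked on embryo pool, but the library names carry none, so libraries were put in groups by the stage and sort gate deposited for their cells. Members were always named. Of each list, called genes were named, otherwise at most the 3 of highest WT level. A further 2 genes were left out of the lists and their counts and are not reported here. The members, lists and tests were chosen with earlier results of these data known.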

Additional observations from a re-analysis of the deposited data

Results flagged for a closer look

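Of 46 groups of 4 libraries examined, 3 held a library far from the others by Dixon's criterion, and chance flags about 1 in 20 groups. All 3 concerned Add2. Its whole-library level was 10.5 CPM in E9.5 WT A, against 5.05 to 5.92 CPM in the other WT libraries. In Ventral hindbrain progenitors E9.5 WT C was high, at 9.06 CPM against 6.48 to 6.89 CPM. In Ventral forebrain progenitors E9.5 null D was low, at 5.80 CPM against 9.21 to 9.38 CPM.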

How the results depend on the processing

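No paired analysis was possible because the library names carry no pool or replicate number. Values chosen after seeing the data were those without E9.5 WT C and D, the fits over all types, and each library left out of the E9.5 Erythroid fit with at least 1 cell. Where a group was left with 1 library, that library was assumed to vary like the others. Of the count and share results 195 stayed within the set limits and 64 moved, and of the gene results 434 were unchanged in direction and call, 39 lost and 8 gained significance, 13 changed sign and 11 moved.

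For E8.5 Erythroid cells, genes called were 82 with DESeq2, 141 with no filter, 86 with all libraries in 1 fit, 44 with null cells that had a tdTomato UMI and 3 to 36 leaving out a library. There the log2 fold change ran from -1.32 to 0.25 for Slc4a1, -0.46 to 0.0060 for Sptb, -0.25 to 0.32 for Epb42 and -0.52 to 0.53 for Rhd, -1.68 to -0.12 for Rhag, -1.21 to -0.16 for Add2 and -0.42 to -0.09 for Ank1, and no member passed. E7.5 Blood progenitors had 51 genes called with no filter. E9.5 EMP had 32 with DESeq2, 70 with no filter, 27 without WT C and D and 8 to 35 leaving out a library. Between stages, DESeq2 called 3 members and put 7 past the adjusted p, and leaving out a library gave 1 to 6 called, 4 to 7 past and 271 to 521 genes called. For whole libraries, DESeq2 called 147 genes, leaving out a library gave 41 to 107 genes and 1 to 6 members, called or past the adjusted p, and leaving out Erythroid cells 41 genes and 0 members. For E9.5 Erythroid cells, 160 genes were called with more than 5 cells, and leaving out a library gave 8 to 104 genes and 0 to 1 members, and without WT C and D 6 genes and 0 members. Slc4a1 turned to -0.28 and Ank1 to -0.30 with more than 5 cells, and they ran from -0.38 to 0.23 and from -0.40 to 0.27 leaving out a library. Without thinning, shares in E8.5 WT Erythroid cells were 89.4% (Slc4a1), 89.7% (Sptb), 76.8% (Ank1), 62.4% (Epb42), 60.7% (Rhag), 50.2% (Rhd) and 78.6% (Add2). Depth limited low types, where 3 UMIs set the floor, and E8.5 Blood progenitors, E8.5 Haematoendothelial progenitors and the comparisons resting on them could not be fitted.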
